A study of Homo sapiens with 6 samples.

Results

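The genes described here are 10 genes of selenoprotein biology, chosen by name from a list: the glutathione peroxidases GPX1, GPX2 and GPX4, the small selenoproteins SELENOF, SELENOH, SELENOK, SELENOT and SELENOW, the selenophosphate synthetase SEPHS2, and SECISBP2. The naming rule used no measured value, but the list was drawn up with earlier results of these data known. All 10 were found by symbol among the 62710 genes of the deposited tables. RNA was sequenced from HCT116, a human colon cancer cell line, in 6 libraries. In 3 of them (sh-NC) the cells carried a scrambled control sequence, and in the other 3 (sh-IGF2BP3) an shRNA against IGF2BP3, an RNA-binding protein that recognises modified mRNAs. Per the study's methods, both constructs were delivered by lentivirus and the stable lines were selected with puromycin, which every library therefore shares. The knockdown rests on 1 shRNA sequence in 1 cell line. Nothing in the labels says whether the 3 libraries of a group came from separate infections or cultures, so the p-values measure the spread between these libraries, which may be technical. The question asked of these genes was whether their mRNA levels differed between the sh-IGF2BP3 and sh-NC cells.

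Selenoproteins contain selenocysteine, an amino acid that is inserted at an in-frame UGA, a codon that otherwise ends translation. Reading UGA this way needs a hairpin in the 3′ untranslated region of the mRNA, the SECIS element, and SECISBP2, the protein that binds it. When UGA is not read through, the mRNA can be degraded by the nonsense-mediated decay that acts on stop codons upstream of an exon junction. GPX4 reduces lipid hydroperoxides in membranes with glutathione and is the enzyme best known for holding back ferroptosis, the iron-dependent form of cell death studied here. GPX1 reduces hydrogen peroxide in the cytosol, and GPX2 does so mainly in the epithelium of the gut.

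The codon that defines these genes is shown first, as it is the feature that 9 of the 10 share. Each line gives the 30 bases around the selenocysteine codon of the annotated transcript (GENCODE 29, GRCh38), written 5′ to 3′ on the coding strand, with the TGA of the codon in capitals.
GPX1: gtggcgtccctcTGAggcaccacggtccgg
GPX2: gtggcttcgctcTGAggcacaaccacccgg
GPX4: gtggcctcccagTGAggcaagaccgaagta
SELENOF: gaagtttgtggaTGAaaattgggaaggttc
SELENOH: cattgcactagcTGAcgcgtctatgggcgc
SELENOK: atggctggtggaTGAggaaggtaaatgtct
SELENOT: atttgtgtttccTGAggttataggcgggtg
SELENOW: tattgtggcgctTGAggctacaagtccaag
SEPHS2: ggcatgaagggcTGAggctgcaaggtcccg

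The letters GGC stood directly after the TGA in 5 of these 9 genes, the 3 glutathione peroxidases, SELENOW and SEPHS2. Over all 36 annotated selenocysteine codons of the 25 human selenoprotein genes, 9 had GGC in that place. These were the 5 above and those of GPX3, GPX6, TXNRD3 and SELENOS. The 36 include the 9 shown here, and 10 lie in SELENOP alone, none of them followed by GGC. A G directly after the TGA was found at 7 of the 9 codons, and at 15 of the 36. SECISBP2 is not a selenoprotein itself, and no selenocysteine codon was annotated in it.

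The codons lay at very different places in the transcripts. In GPX4 the TGA (chr19:1105403-1105405, plus strand) was codon 73 of 197 in exon 3 of 7, with 342 bases of spliced transcript between it and the last exon junction. The TGA of GPX1 (chr3:49358132-49358134, minus strand) was codon 49 of 203 in exon 1 of 2, 105 bases before its only junction. GPX2 (chr14:64942607-64942609, minus strand) had the same layout, with codon 40 of 190 in exon 1 of 2 and 102 bases to the junction. The distance from the TGA to the last junction was 470 bases in SELENOT, 243 in SELENOW, 136 in SELENOH and 78 in SELENOF. SELENOK was the exception among the spliced genes. Its TGA was codon 92 of 94, and the last junction followed after 5 bases. SEPHS2 has 1 exon in the annotated transcript, so no junction follows its codon.

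**Figure D1:**
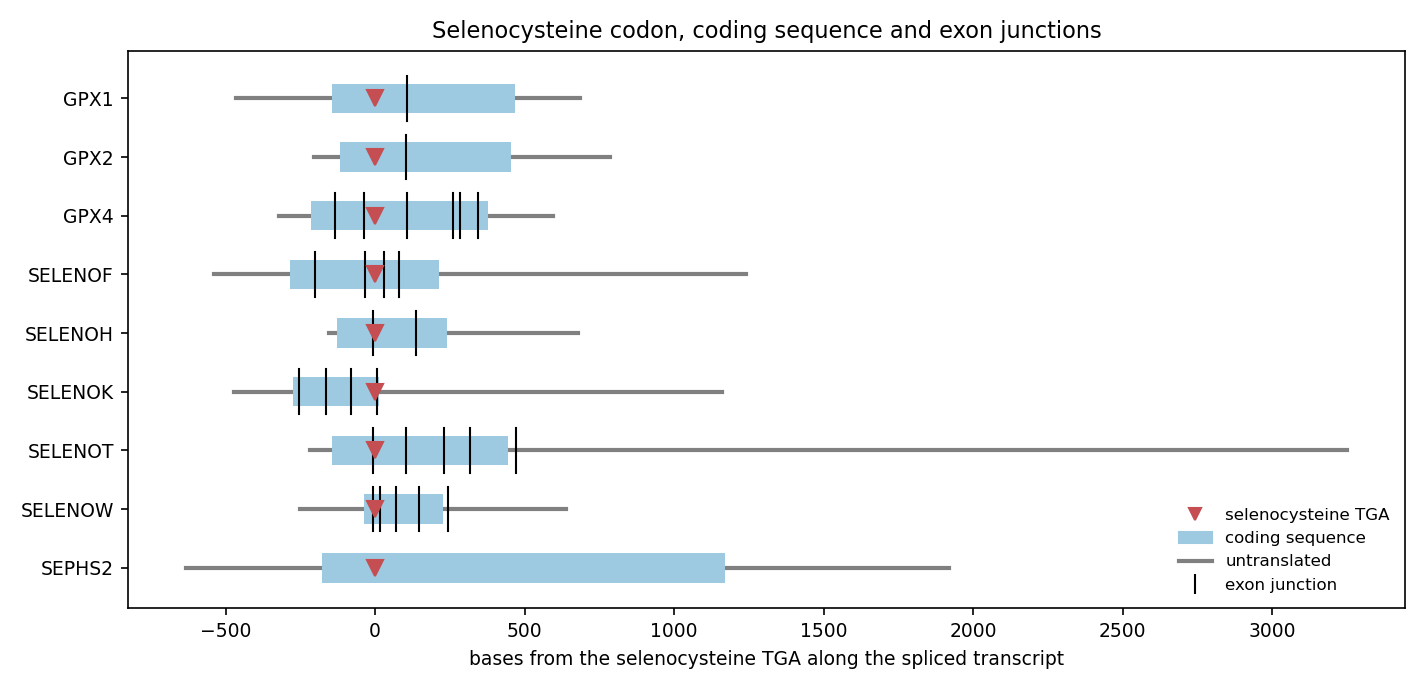
Spliced transcripts of the 9 genes with a selenocysteine codon, drawn to scale in bases along the horizontal axis and aligned at the TGA (0). Blue boxes are coding sequence, grey lines untranslated sequence and black ticks exon junctions. A junction follows the TGA in 8 of the 9 genes, at a distance of 5 bases in SELENOK and none in SEPHS2.

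The libraries held 16146718 to 23576469 counts, and the 10 genes together 9052 to 12889 counts per library. IGF2BP3 was lower in the sh-IGF2BP3 libraries, with 60.2, 52.3 and 55.8 CPM (counts scaled to the size of the library, after TMM) against 90.3, 84.1 and 70.3 in sh-NC. The fitted log2 fold change was −0.54 (SE 0.181) and the adjusted p was 0.126 (edgeR quasi-likelihood test, Benjamini-Hochberg), so the targeted gene itself did not pass the test. That test called 0 of the 16753 tested genes in either direction. The study reports the knockdown in HCT116 by qPCR and Western blot. A correction described further on removes the trends of fold change with GC content and gene length. With it the groups of IGF2BP3 overlapped, and its log2 fold change was −0.22 (SE 0.185, unadjusted p = 0.257, edgeR quasi-likelihood test). Over the alternatives it ran from −0.66 to −0.03, the latter with those trends removed and without sh-NC replicate 1. Libraries of the same group were not always the most alike. The closest pair of all was sh-NC replicate 1 and sh-IGF2BP3 replicate 3, with a chi-square per degree of freedom of 10.5 over genes, against 19.99 to 111 for the other pairs. Mitochondrial transcripts took 6.12% to 7.76% of counts in sh-NC and 5.24% to 5.89% in sh-IGF2BP3, and the part of this difference in the results was not tested. Of 9 colon epithelial markers, EPCAM, CDH1, KRT8, KRT18, KRT19 and CDX2 were above 1 CPM in every library, while VIL1, CDX1 and LGR5 had at most 5 counts in any. The summed level of the 9 markers was 2029 to 3702 CPM in sh-NC and 3142 to 4176 CPM in sh-IGF2BP3. KRT8 made up most of that sum (1181 to 2583 CPM), while CDH1 went the other way without overlap, with 163, 125 and 140 CPM in sh-NC and 116, 92.4 and 101 CPM in sh-IGF2BP3. The 7 markers of other cells summed to 30.0 to 51.8 CPM and 32.0 to 62.4 CPM. COL1A1 gave most of that, with 27.99 to 58.5 CPM, COL1A2 was at 0 in every library, and the leukocyte markers PTPRC and CD3E had at most 2 counts.

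Of the 10 genes, 9 passed the filter on low counts and GPX2 did not. None of the 9 passed the test in either direction, a fold change above 1.5 with an adjusted p under 0.05 (edgeR quasi-likelihood test), where the share of all 16753 tested genes called was 0.00% in each direction. DESeq2 called 1 of the 9, GPX1, where it called 4.29% of all genes with an adjusted p higher, and limma on log2(FPKM + 1) called 0, where it called 0.00% higher. At an unadjusted p under 0.05, 5 were higher in sh-IGF2BP3, namely GPX1, SELENOH, SELENOK, GPX4 and SELENOW, and 0 were lower. Over all tested genes 13.6% were higher and 8.54% lower by that measure. The count of 5 was 3 without sh-NC replicate 3, where the share of all genes was 7.58%, and 3 without sh-IGF2BP3 replicate 2, where it was 7.53%. Without sh-NC replicate 1, 4 of these genes were called higher (all but SELENOH), beside 10% of all genes (1739 of 17379). Without sh-IGF2BP3 replicate 3, GPX1 was the only one called, beside 1.23% of all genes. In the same 5 genes every sh-IGF2BP3 library lay above every sh-NC library, which held for 13.2% of all genes (11.0% lay below). The median log2 fold change of the 9 genes was 0.55, beside −0.01 over all genes tested. The other 4, SEPHS2, SELENOT, SELENOF and SECISBP2, had overlapping groups. In each of the 5 genes the exact two-sided permutation test of the CPM values gave p = 0.1, the smallest value that 3 libraries against 3 allow.

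**Figure D2:**
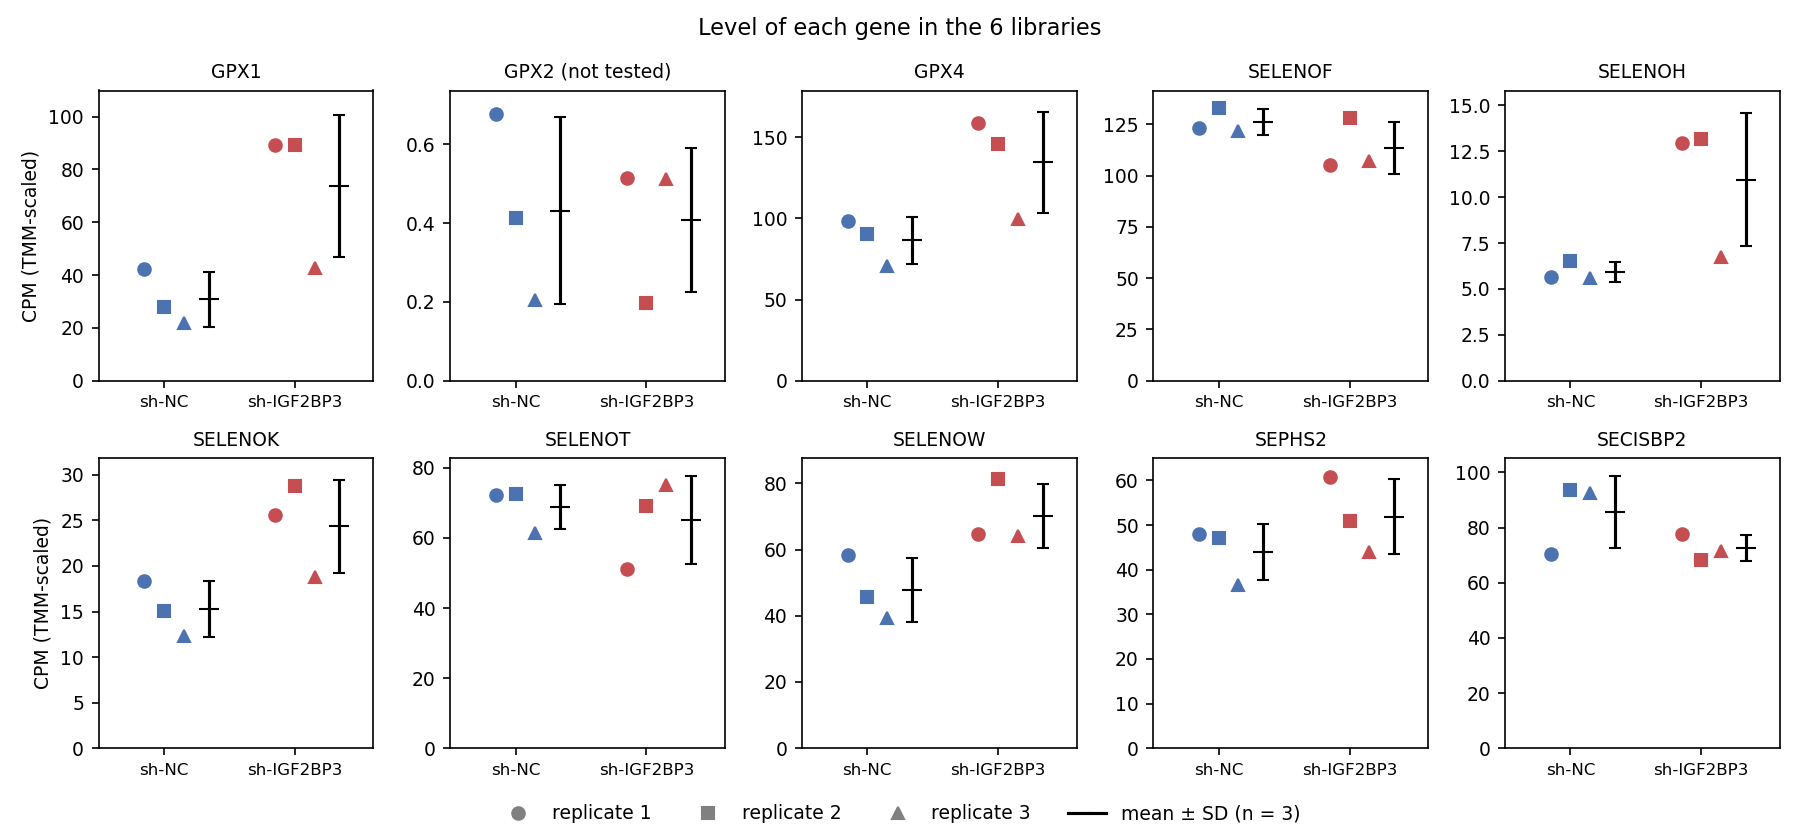
Level of each of the 10 genes in CPM (vertical axes, from 0 and different for each gene) in the 3 sh-NC (blue) and 3 sh-IGF2BP3 (red) libraries, with the mean and SD beside each group. In GPX1, GPX4, SELENOH and SELENOK, sh-IGF2BP3 replicate 3 sits just above the highest sh-NC library and well below the other two.

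GPX4 (ENSG00000167468, chr19:1103982-1106791, plus strand) measured 98.3, 90.4 and 70.6 CPM in sh-NC replicates 1 to 3 and 158.6, 145.6 and 99.5 CPM in sh-IGF2BP3. The groups did not overlap, but sh-IGF2BP3 replicate 3 exceeded sh-NC replicate 1 by a ratio of only 1.01 (95% exact interval 0.947 to 1.08, which covers counting error only). The means were 86.4 ± 14.3 and 134.5 ± 31.0 CPM (SD, n = 3 each), a ratio of 1.56. The log2 fold change was 0.64 (SE 0.211), with an unadjusted p of 0.0082 and an adjusted p of 0.124 (edgeR quasi-likelihood test). Without sh-NC replicate 1 the adjusted p was 0.0297, and over all the alternatives it ran from 0.0297 to 0.997. With the trends of fold change with GC content and gene length removed from each library, the log2 fold change of GPX4 was 0.08 (SE 0.153) and the groups overlapped.

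The largest difference among the 10 genes was that of GPX1 (ENSG00000233276, chr3:49357174-49358605, minus strand). Its levels were 42.4, 27.9 and 22.02 CPM in sh-NC and 89.3, 89.2 and 42.6 CPM in sh-IGF2BP3. Replicates 1 and 2 of sh-IGF2BP3 were about equal and far above all sh-NC libraries, whereas replicate 3 was level with sh-NC replicate 1 at a ratio of 1.00 (95% exact interval 0.907 to 1.11). The means were 30.8 ± 10.5 and 73.7 ± 26.9 CPM (SD, n = 3 each), and the log2 fold change was 1.26 (SE 0.284, adjusted p = 0.103, edgeR quasi-likelihood test). GPX1 ranked 57 of 16753 genes by p. Its adjusted p was 0.00207 without sh-NC replicate 1, 0.0300 without sh-IGF2BP3 replicate 3 and 0.00883 with DESeq2, in a range of 2.17e-05 to 0.992 over all the alternatives. The ratio of GPX1 to GPX4 counts, which does not depend on the scaling of a library, was 0.431, 0.309 and 0.312 in sh-NC and 0.563, 0.613 and 0.428 in sh-IGF2BP3. The library sh-NC replicate 1 reached the level of sh-IGF2BP3 replicate 3 in that ratio, and the groups overlapped. A longer protein-coding gene annotated on the same strand, ENSG00000290318, covers 99.9% of GPX1 and held at most 5 counts in a library, against 431 to 1561 counts for GPX1.

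GPX2 (ENSG00000176153, chr14:64939152-64942746, minus strand) was close to absent, with 12, 10 and 4 counts in sh-NC and 9, 3 and 9 counts in sh-IGF2BP3. Its 47 counts over 6 libraries were too few for the test, and the groups overlapped. The mean levels were 0.43 ± 0.237 and 0.41 ± 0.183 CPM (SD, n = 3 each). GPX2 lies inside CHURC1, a gene of the opposite strand that had 215 to 426 counts, and since the use of strand in counting is not given in the sources used here, reads of the 2 genes cannot be told apart.

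SELENOH and SELENOW are small redox proteins with a thioredoxin-like fold, SELENOH in the nucleolus and SELENOW in the cytosol. For SELENOH (ENSG00000211450, chr11:57741491-57743554, plus strand) the levels were 5.64, 6.53 and 5.57 CPM in sh-NC and 13.0, 13.1 and 6.76 CPM in sh-IGF2BP3. The sh-NC libraries were nearly equal, at 5.91 ± 0.533 CPM (SD, n = 3), while the sh-IGF2BP3 libraries split into replicates 1 and 2 and a far lower replicate 3. The log2 fold change was 0.89 (SE 0.293, adjusted p = 0.124, edgeR quasi-likelihood test). On the deposited FPKM scale the groups of SELENOH overlapped, with 3.17 in sh-IGF2BP3 replicate 3 and 3.25 in sh-NC replicate 2. Longer protein-coding genes annotated on the same strand cover 100% and 86.0% of SELENOH, with at most 15 and 13 counts in a library beside 100 to 227 for SELENOH.

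SELENOW (ENSG00000178980, chr19:47778677-47784686, plus strand) had 58.4, 45.8 and 39.4 CPM in sh-NC and 64.7, 81.4 and 64.2 CPM in sh-IGF2BP3. It was the member whose groups stood clearest apart, since its lowest sh-IGF2BP3 library exceeded the highest sh-NC library by a ratio of 1.10 (95% exact interval 1.01 to 1.20). The log2 fold change was 0.55 (SE 0.199, adjusted p = 0.141, edgeR quasi-likelihood test), and the fold between the means was 1.46, short of the 1.5 required. Without sh-NC replicate 1 the log2 fold change was 0.72 and the adjusted p 0.0220, the lowest in a range to 0.992 over all the alternatives. With the GC and length trends removed the log2 fold change was 0.56, but with those of principal transcripts it was 0.02, as described further on. No other gene in the deposited data overlapped SELENOW.

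SELENOK, SELENOT and SELENOF are selenoproteins of the endoplasmic reticulum. SELENOK, a membrane protein that takes part in protein palmitoylation and the degradation of misfolded proteins, is at chr3:53884417-53891885 (ENSG00000113811, minus strand). It measured 18.4, 15.04 and 12.3 CPM in sh-NC and 25.6, 28.8 and 18.8 CPM in sh-IGF2BP3. The groups were again parted by a small gap, between sh-NC replicate 1 and sh-IGF2BP3 replicate 3, at a ratio of 1.02 (95% exact interval 0.874 to 1.19). The log2 fold change was 0.68 (SE 0.238, adjusted p = 0.136, edgeR quasi-likelihood test), and the adjusted p was 0.0265 without sh-NC replicate 1, in a range of 0.0229 to 0.992 over all the alternatives. Unlike GPX4 and GPX1, SELENOK has a transcript of low GC content (42.8%), and with the GC and length trends removed its log2 fold change was 0.80 (SE 0.223, unadjusted p = 0.0041, adjusted p = 0.415, edgeR quasi-likelihood test).

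SELENOT, a thioredoxin-like reductase (ENSG00000198843, chr3:150602875-150630436, plus strand), had 72.3, 72.5 and 61.5 CPM in sh-NC and 51.1, 69.1 and 75.02 CPM in sh-IGF2BP3. The sh-IGF2BP3 group held both the lowest and the highest library of the 6. The log2 fold change was −0.08 (SE 0.194, adjusted p = 0.833, edgeR quasi-likelihood test), and leaving out sh-IGF2BP3 replicate 1 turned it to 0.07. At its start SELENOT shares 354 bases with SERP1 on the opposite strand, which had 2233 to 3206 counts. SELENOF, a partner of the glycoprotein folding sensor UGGT (ENSG00000183291, chr1:86862445-86914424, minus strand), measured 123, 133 and 122 CPM in sh-NC and 105, 128 and 107 CPM in sh-IGF2BP3. Only sh-IGF2BP3 replicate 2 lay inside the sh-NC range, and the log2 fold change was −0.15 (SE 0.178, adjusted p = 0.635, edgeR quasi-likelihood test).

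SEPHS2 and SECISBP2 serve the synthesis of all selenoproteins. SEPHS2 makes selenophosphate, the selenium donor for selenocysteine, and is a selenoprotein itself (ENSG00000179918, chr16:30443631-30445874, minus strand). Its levels were 48.1, 47.1 and 36.6 CPM in sh-NC and 60.7, 50.8 and 44.0 CPM in sh-IGF2BP3. Here sh-IGF2BP3 replicate 3 lay within the sh-NC range, and the log2 fold change was 0.24 (SE 0.197, adjusted p = 0.490, edgeR quasi-likelihood test). SECISBP2 (ENSG00000187742, chr9:89318500-89359663, plus strand) had 70.5, 93.7 and 92.5 CPM in sh-NC and 77.8, 68.3 and 71.7 CPM in sh-IGF2BP3. The 3 sh-IGF2BP3 libraries were below the sh-NC mean but sh-NC replicate 1 was as low as they were, and the log2 fold change was −0.24 (SE 0.184, adjusted p = 0.459, edgeR quasi-likelihood test).

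The libraries of a group differed from each other in these genes. Each gene's log2 CPM was set against its mean over the 6 libraries, and the median of the 9 deviations was −0.05, −0.23 and −0.49 in sh-NC replicates 1 to 3. In sh-IGF2BP3 it was 0.36, 0.45 and −0.10, so that replicate 3 lay below sh-NC replicate 1. The median over all tested genes stayed between −0.01 and 0.04 in every library. For GPX1 the mean of sh-IGF2BP3 replicates 1 and 2 was 2.10 times the level of replicate 3, for SELENOH 1.93 times and for GPX4 1.53 times. In SELENOF and SECISBP2 that ratio was 1.09 and 1.02, and in SELENOT it was 0.802, with replicate 3 the highest. Bulk RNA does not separate fewer cells with a transcript from less of it per cell.

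**Figure D3:**
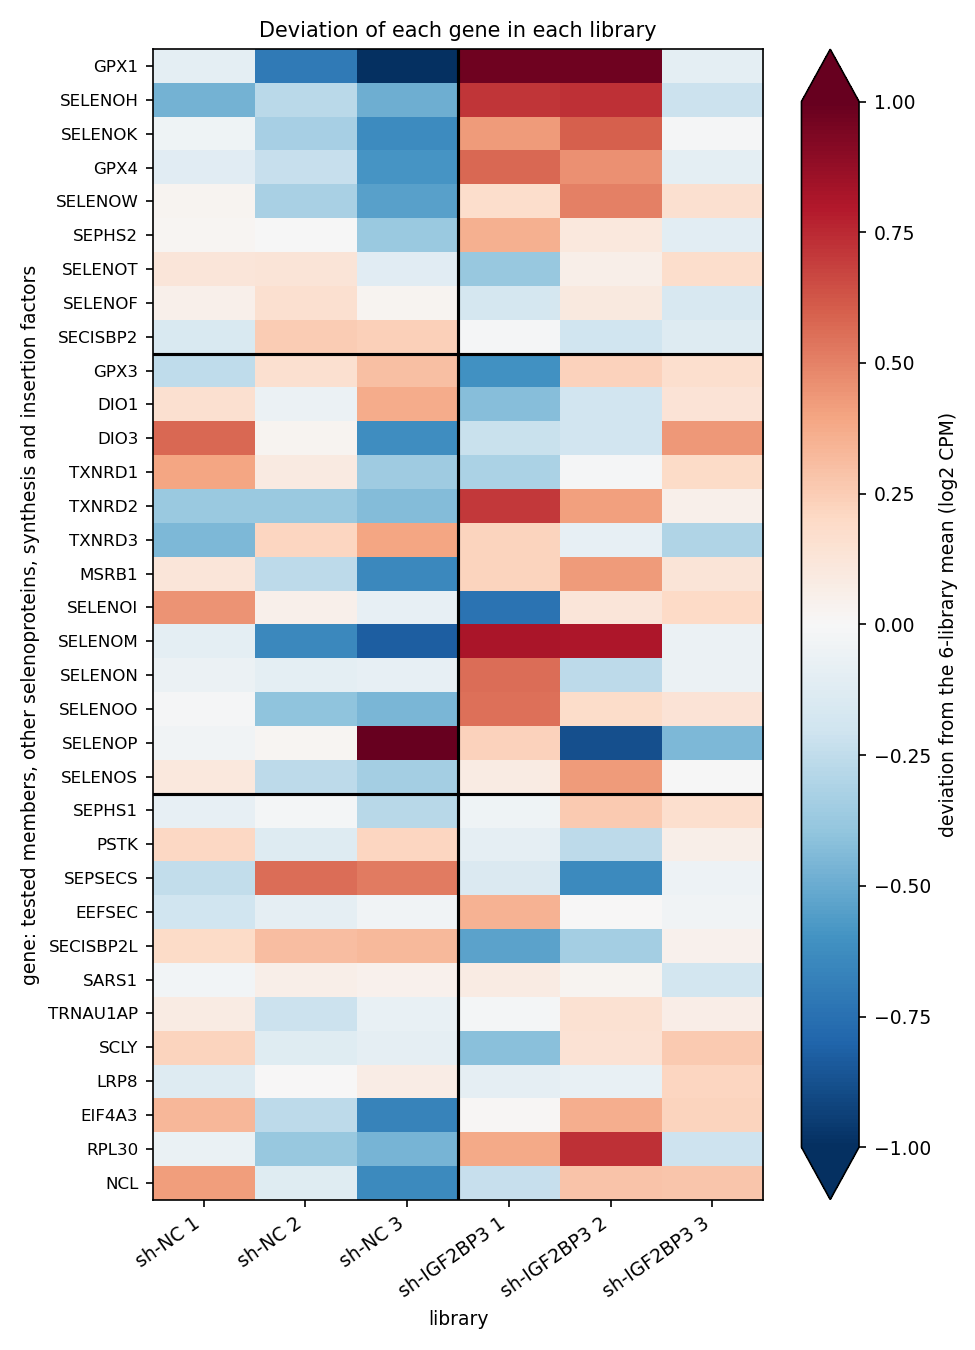
Deviation of each gene's log2 CPM from its mean over the 6 libraries (columns), in colour from −1 to 1, for the 9 tested genes (top block), 13 other selenoprotein genes (middle) and 12 factors of selenocysteine synthesis and insertion (bottom). The rows of GPX1, SELENOH, SELENOK and GPX4 are red in sh-IGF2BP3 replicates 1 and 2 and near or below 0 in replicate 3, as are TXNRD2 and SELENOM except that TXNRD2 stays slightly above 0 there.

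Levels of different genes were compared as deposited FPKM values, which divide by gene length. GPX4 was the highest of the 10 with a mean of 59.5 FPKM over the 6 libraries, followed by SELENOF with 54.4 and GPX1 with 35.9. SEPHS2 (21.2), SELENOT (16.3), SELENOW (11.3), SELENOK (9.53) and SECISBP2 (8.09 FPKM) came next. The ranges over libraries of all these neighbours overlapped, so their order is not fixed beyond the spread. SELENOH at 4.05 FPKM was below every library's value of SECISBP2, and GPX2 at 0.310 FPKM below every value of SELENOH. In the control cells the mean of SELENOF (58.7 FPKM) was above that of GPX4 (47.9), and in sh-IGF2BP3 it was below, at 49.996 against 71.2. The length behind the FPKM of SELENOW was 5156 bases, while its annotated transcript shown above has 888 bases, so its FPKM depends strongly on which length is used.

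Fold changes in these libraries went with the GC content and length of transcripts over all genes, and the 10 genes are spread widely along both. The GC content of the longest transcript was 64.2% for GPX1 and 62.5% for GPX4, and 35.3% for SELENOT and 37.5% for SELENOF, with a median of 48.7% over tested genes. The median length of the 9 tested genes was 2201 bases against 4707 for all genes. With each library's trends with GC content and length removed, 4 of the 9 were higher at an unadjusted p under 0.05 (GPX1, SELENOH, SELENOK and SELENOW) and 0 lower, where 6.86% of all genes were higher and 3.59% lower. The lowest adjusted p among the 9 was then 0.415 (edgeR quasi-likelihood test). The median log2 fold change of the 9 was then 0.20, beside 0.01 over all genes.

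The correction acted on each gene differently. GPX1 went from 1.26 to 0.64 (SE 0.206) on the log2 scale and its groups overlapped, and GPX4 from 0.64 to 0.08. SELENOF, SELENOT and SECISBP2 changed sign, to 0.07, 0.20 and 0.11, and SEPHS2 moved to 0.11. SELENOH kept 0.75 (SE 0.256) with overlapping groups, while SELENOK at 0.80 and SELENOW at 0.56 (SE 0.193) were the ones whose groups did not overlap. The share of all genes without overlap was not counted on this scale, so these cannot be set against it. For SELENOW the fold change depended on the transcript taken to stand for the gene. The principal transcript of SELENOW has a GC content of 58.6%, against 49.9% for the longest. With GC content and length both taken from principal transcripts, the log2 fold change of SELENOW was 0.02. The parts of GC content and length in this were not separated. By that measure GPX1 (0.56) and SELENOK (0.76) were higher at an unadjusted p under 0.05, beside 5.84% of all genes, while SELENOH was at 0.42 and GPX4 at −0.07. SELENOF and SELENOT stayed positive there, at 0.04 and 0.21, but SECISBP2 was at −0.09, negative as without the correction.

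**Figure D4:**
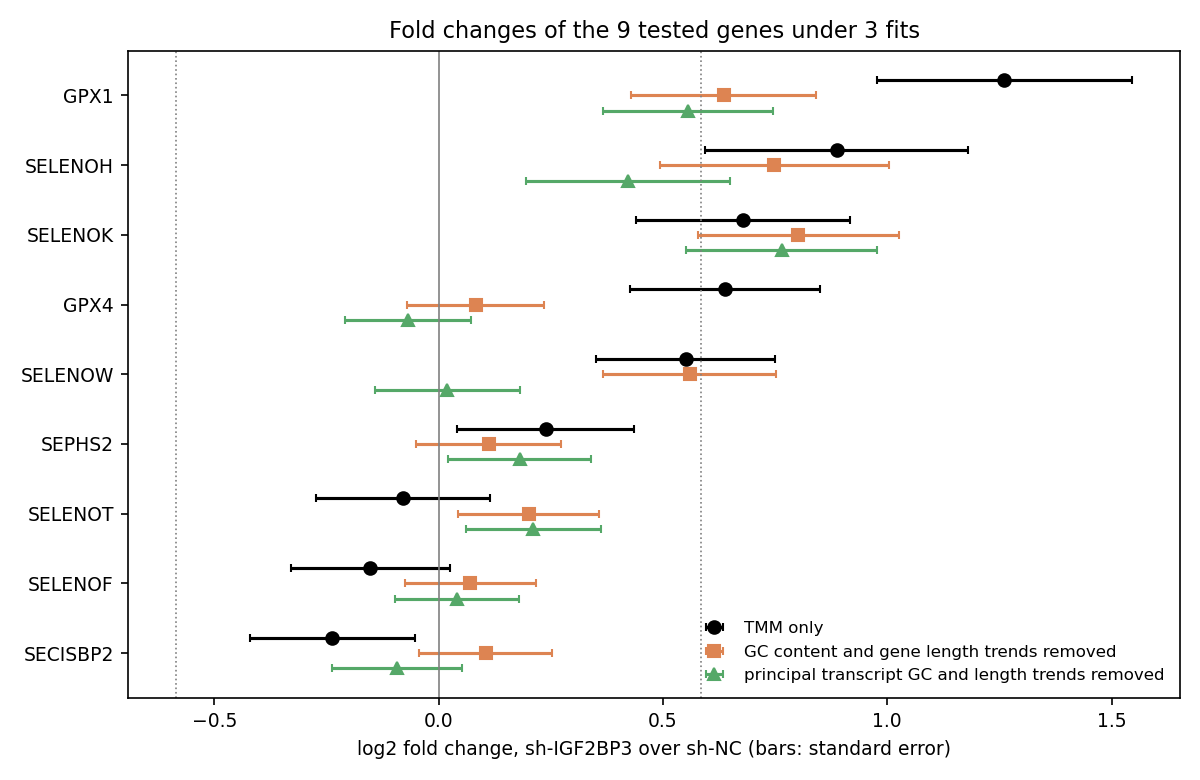
Log2 fold change of the 9 tested genes (horizontal axis, sh-IGF2BP3 over sh-NC, bars are standard errors) in the TMM-scaled fit (black), with GC content and length trends of the longest transcript removed (orange) and with those of the principal transcript removed (green); dotted lines mark a fold of 1.5. SELENOK and GPX1 stay to the right of 0 in all 3, GPX4 moves to about 0, and SELENOW does so in the principal transcript fit only.

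**Figure D5:**
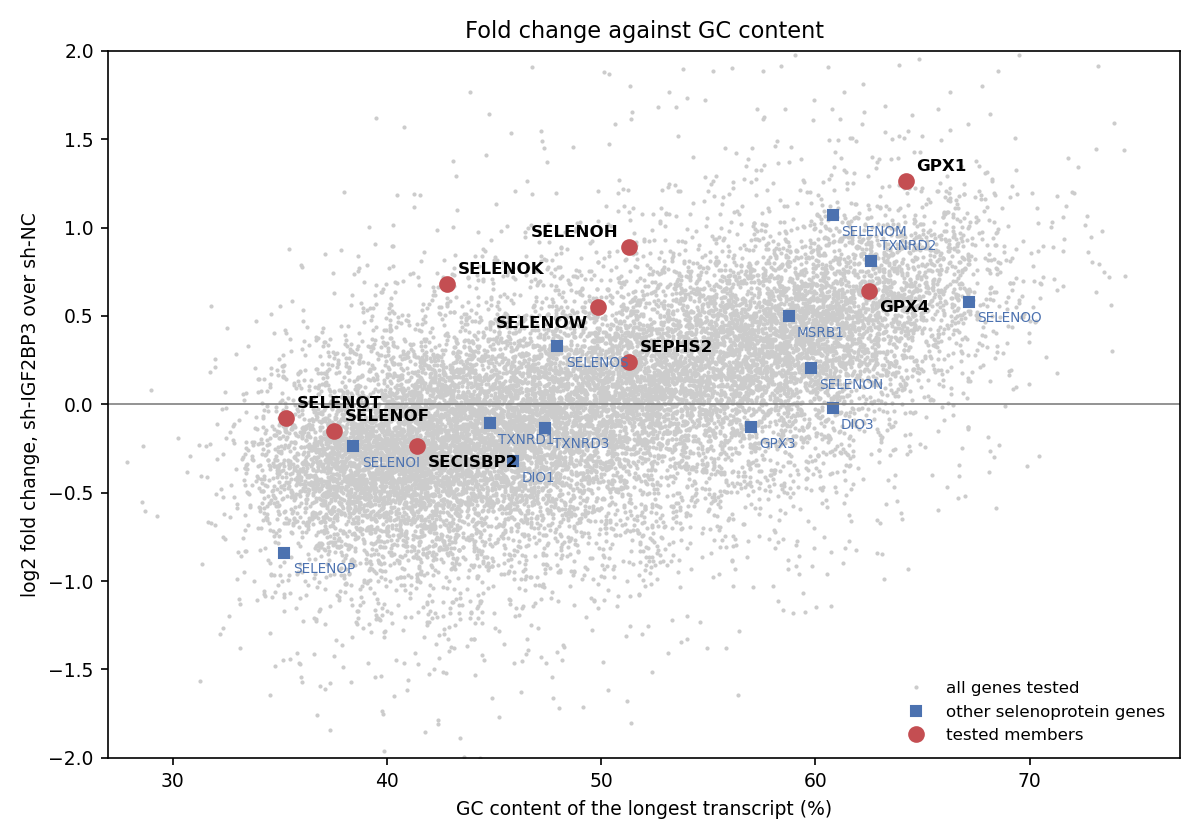
Log2 fold change (vertical axis) against the GC content of the longest transcript (horizontal axis, %) for the tested genes (grey), other selenoprotein genes (blue squares) and the 9 tested genes of the list (red circles). GPX4 lies within the grey cloud at its GC content, and SELENOK, with 42.8% GC and a log2 fold change of 0.68, lies towards its upper edge; 21 genes fall outside the axes.

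The other selenoprotein genes were taken from the full human set of 25. Of the 16 outside the list, 13 were tested, 0 passed, 4 were higher at an unadjusted p under 0.05 and 0 lower, where 13.6% of all genes were higher and 8.54% lower. Their median log2 fold change was −0.02. GPX6 and SELENOV had 0 counts in every library, and DIO2, a deiodinase, had 43 counts in all. SELENOM, a thioredoxin-like protein of the endoplasmic reticulum, measured 11.3, 7.73 and 6.80 CPM in sh-NC and 21.4, 21.3 and 11.6 CPM in sh-IGF2BP3. Its pattern by library was that of GPX1, with replicate 3 of sh-IGF2BP3 just above sh-NC replicate 1, and its log2 fold change was 1.07 (adjusted p = 0.103, edgeR quasi-likelihood test). Removing the trends with GC content and length left it at 0.60 with overlapping groups, and those of principal transcripts at 0.39 (unadjusted p = 0.0663, edgeR quasi-likelihood test).

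TXNRD2, the mitochondrial thioredoxin reductase, had 12.9, 12.9 and 12.4 CPM in sh-NC and 27.4, 22.3 and 17.3 CPM in sh-IGF2BP3. Its sh-NC libraries agreed closely and all sh-IGF2BP3 libraries were clear of them. The log2 fold change was 0.81 (adjusted p = 0.108, edgeR quasi-likelihood test), and 0.40 once the same trends were removed (0.29 with principal transcripts, unadjusted p = 0.0947, edgeR quasi-likelihood test). The methionine sulfoxide reductase MSRB1 (0.50) and SELENOO (0.58), a mitochondrial pseudokinase that transfers AMP to proteins, were the remaining genes under the unadjusted threshold, and with the trends removed they were at 0.11 and −0.09. TXNRD1, the cytosolic thioredoxin reductase, had the highest mean of all selenoprotein mRNAs over the 6 libraries, at 86.7 FPKM, but its range (69.1 to 108 FPKM) overlapped that of GPX4 (41.9 to 86.3 FPKM), which was above it in sh-IGF2BP3 replicate 1. Its groups overlapped, with a log2 fold change of −0.11 (SE 0.222). SELENON (0.21), SELENOS (0.33), SELENOI (−0.24) and TXNRD3 (−0.13) overlapped too, as did SELENOP (−0.84) with only 104 counts in all, and GPX3, DIO1 and DIO3 with 80 to 241 counts in all. Over all 25 selenoprotein genes, 21 were tested, 9 were higher at an unadjusted p under 0.05 and 0 lower, where 13.6% of all genes were higher and 8.54% lower. With the trends removed 6 were higher, beside 6.86% of all genes, and with those of principal transcripts 2 (GPX1 and SELENOK), beside 5.84%. The median log2 fold change was 0.24, and 0.08 with the trends removed.

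Selenoprotein mRNAs are known to differ in how far they fall when selenium is scarce. The lists of sensitive and spared genes used here hold only some of the selenoproteins. They were chosen with earlier results of these data known. The 4 genes listed as sensitive (GPX1, SELENOH, SELENOW and MSRB1) were all higher in sh-IGF2BP3 at an unadjusted p under 0.05, as were 13.6% of all genes, with a median log2 fold change of 0.72. Of the 5 listed as spared (GPX4, TXNRD1, TXNRD2, SELENOT and SEPHS2), 2 were, and the median was 0.24. Once the trends with GC content and length were taken out, 3 of the 4 (all but MSRB1) and 1 of the 5 (TXNRD2) were higher by that measure, beside 6.86% of all genes. With principal transcripts 1 of the 4 (GPX1) and 0 of the 5 were, beside 5.84%. The medians were 0.60 and 0.11 with the GC content and length trends removed, and 0.24 and 0.18 with those of the principal transcripts. The difference between the lists was not tested, and selenium was not measured.

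Among 12 factors of selenocysteine synthesis and insertion besides SEPHS2 and SECISBP2, all were tested and 0 passed. SECISBP2L, the paralog of SECISBP2, measured 68.1, 73.7 and 74.4 CPM in sh-NC and 41.1, 47.1 and 61.5 CPM in sh-IGF2BP3. All 3 sh-IGF2BP3 libraries were below the sh-NC libraries, and the log2 fold change was −0.53 (SE 0.193, adjusted p = 0.142, edgeR quasi-likelihood test). SEPSECS, which forms selenocysteine on its tRNA, had a log2 fold change of −0.58 with overlapping groups (adjusted p = 0.203, edgeR quasi-likelihood test), since sh-NC replicate 1 (15.4 CPM) lay among the sh-IGF2BP3 libraries (11.7 to 17.6 CPM). With the GC and length trends removed, these values were −0.20 and −0.16. RPL30, a ribosomal protein that also binds SECIS elements, was at 0.64 with overlapping groups (unadjusted p = 0.0135, edgeR quasi-likelihood test). The elongation factor EEFSEC was at 0.23, and its sh-IGF2BP3 libraries (15.3 to 20.1 CPM) started at the level of the highest sh-NC library (15.3 CPM). The other 8 had overlapping groups and log2 fold changes from −0.20 (PSTK) to 0.35 (EIF4A3). The median of the 12 was 0.09.

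The genes that supply GPX4 with glutathione were measured in the same libraries. SLC7A11, the cystine transporter that supplies cysteine for glutathione, measured 187, 236 and 189 CPM in sh-NC and 104, 98.6 and 104 CPM in sh-IGF2BP3. Its sh-IGF2BP3 libraries were nearly equal and all far below sh-NC, replicate 3 included, and the log2 fold change was −0.996 (SE 0.182, adjusted p = 0.103, edgeR quasi-likelihood test). With the GC content and length trends removed it was −0.57 (SE 0.170), still with no overlap of the groups, and with those of principal transcripts −0.52. The study drew SLC7A11 as a target from its RNA-seq, published binding data and ferroptosis suppressor genes. It also reports a fall of SLC7A11 mRNA after the knockdown. The other 5 genes of glutathione supply (SLC3A2, GCLC, GCLM, GSS and GSR) had overlapping groups, with log2 fold changes from −0.13 to 0.19. Of the glutathione peroxidases with cysteine in place of selenocysteine, GPX5 and GPX7 had 0 counts and GPX8 was at −0.31 (SE 0.187) with overlapping groups.

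The genes whose pattern over the 6 libraries was most like that of GPX4 were found by the root mean square difference of log2 CPM deviations. EID2 (0.025), MARCKSL1 (0.034), HCFC1R1 (0.038), C15orf61 (0.040) and RPL8 (0.048) were the closest of all tested genes, where the median gene was at 0.509. Of the list, SELENOK was the closest to GPX4 with 0.105 (rank 104), followed by SELENOH (0.205), SELENOW (0.209) and SEPHS2 (0.219). GPX1, with the same order of libraries but wider differences, was at 0.376, and SELENOF, SELENOT and SECISBP2 were at 0.458 to 0.532.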

How the data were processed

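RNA-seq libraries of HCT116 cells were analysed from 2 tables, raw counts per gene and FPKM values, both deposited by the authors for 62710 Ensembl genes on GRCh38. The authors' FPKM values equal the counts divided by the library total and by a gene length that was constant over libraries. CASAVA and GRCh38 are named in the submitters' processing notes. The aligner, the counter and the use of strand are not given in the sources used here. Columns of annotation in the tables hold no comparison of the authors.

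Counts were fitted in R 4.3.3 with edgeR 4.0.16 (filterByExpr, TMM, glmQLFit and glmQLFTest, Benjamini-Hochberg over 16753 genes), sh-IGF2BP3 against sh-NC, with thresholds of 1.5 in fold change and 0.05 in adjusted p, which the study's methods state. DESeq2 1.42.0 and limma 3.58.1 were alternatives. Log2 CPM used a prior count of 2. To remove trends with GC content and length, splines (5 degrees of freedom) were fitted in every library to the difference from the 6-library average and entered as offsets. GC content, transcripts and selenocysteine codons came from GENCODE 29, and GC content was known for 96.9% of tested genes. GC content was that of the longest transcript and length the one behind the FPKM, except in the fit with principal transcripts. Genes without these values stayed uncorrected in either fit and are part of the shares of all genes. How many lacked a principal transcript was not counted. The edgeR, DESeq2 and limma fits were tried on simulated data, with a random covariate in place of GC content and length for the removal of trends. The permutation test was checked on a constructed example only, and the counting intervals were not checked. The genes, lists and alternatives were chosen with earlier results of these data known. All 10 genes were named by rule, as was IGF2BP3. Other genes came from lists of selenoproteins, insertion factors, cysteine-type glutathione peroxidases, glutathione supply and cell markers, or were the 5 nearest to GPX4. Pseudogenes of these genes (9 in the table) had at most 9 counts in a library.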

Additional observations from a re-analysis of the deposited data

How the results depend on the processing

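The direction of GPX1, SELENOH, SELENOK and SELENOW was higher in sh-IGF2BP3 under all 25 alternatives, but whether a gene was called depended on the method and on single libraries. All the alternatives reuse the same libraries, and the lowest log2 fold change of SELENOW among them was 0.02. The share of all genes that kept their direction was not counted. Genes called higher over all tested were 0 as reported, 1 with RLE normalization, 1 with at least 10 counts in every library, 562 with DESeq2 and 687 with no filter on low counts. Genes called lower were 0, 137 with DESeq2, 150 with no filter and 1 with limma on log2(FPKM + 1) and a mean FPKM of at least 1. DESeq2 and the fit with no filter also had an all-gene median of −0.11. With each library left out in turn, calls ranged from 0 to 1739 higher and 0 to 985 lower, with the highest counts without sh-NC replicate 1, next 214 higher and 14 lower without sh-IGF2BP3 replicate 3. Of the 9 tested genes, DESeq2 and the fit with no filter called 1 higher (GPX1 in both), and leaving out a library called 0 to 4: GPX1, GPX4, SELENOK and SELENOW without sh-NC replicate 1, GPX1 without sh-IGF2BP3 replicate 3. The number higher at an unadjusted p under 0.05 was 3 without sh-NC replicate 3 or without sh-IGF2BP3 replicate 2, and 4 or 5 without each of the other libraries, where the share of all genes ran from 7.02% to 17.7% over the 6 libraries left out. The cause of these differences was not tested.

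With GC content and length trends removed, the median of the 9 genes was 0.20, and 0.21 with the replicate block. Principal transcripts, added after the data were seen, gave 0.18. The same correction with a library left out was also added then. Its values are given for sh-NC replicates 1 to 3 and then sh-IGF2BP3 replicates 1 to 3. The median was 0.34, 0.21, 0.11, 0.28, 0.22 and 0.18. Leaving out libraries gave 0 to 735 genes called higher and 0 to 182 lower, with 0 to 3 of the 9 called higher (GPX1, SELENOK and SELENOW without sh-NC replicate 1), and 1 to 5 higher at an unadjusted p under 0.05, the lowest without sh-IGF2BP3 replicate 2 (2.24% of all genes) and 3 without sh-NC replicate 2 (3.59%), where the highest, 5 without sh-NC replicate 1, stood beside 15.7%. There were 3 genes called higher without sh-IGF2BP3 replicate 3. With principal transcripts 2 of the 9 were higher (5.84%). The sign of genes near 0 turned. GPX4 was at −0.068 with principal transcripts and −0.023 without sh-NC replicate 3, and SEPHS2 at −0.0070 without that library. SELENOF was at 0.071 with the trends removed, 0.068 with the replicate block as well, 0.040 with principal transcripts, and 0.13, 0.084, 0.030, 0.033, 0.079 and 0.15 without a library. SELENOT was at 0.20, 0.21 and 0.21 in these settings, and 0.34, 0.21, 0.097, 0.28, 0.22 and 0.15 without a library. Without the trends removed, SELENOT ran from −0.21 to 0.071 over the libraries left out, the highest without sh-IGF2BP3 replicate 1. SECISBP2 was at 0.11 with the trends removed, 0.099 with the replicate block and 0.073, 0.15, 0.11, 0.0024, 0.15 and 0.18 without a library. With principal transcripts it was at −0.092, the sign it had without the correction.

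The sources speak of pairs of control and knockdown cells but do not say which libraries form a pair. Deviations from the mean of each group correlated at −0.28, −0.19 and −0.04 between same-numbered libraries. No library correlated best with the one of its own number. With 3 libraries in a group, such correlations cannot show whether pairs exist. With the replicate block, 0 genes were called, 5 of the 9 were higher at an unadjusted p under 0.05 (12.6% of all genes), and the median was 0.56, with GPX1 at 1.24 and GPX4 at 0.62.

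Depth limits GPX2 above all, with at most 12 counts in a library, and SELENOH to a counting interval of 0.809 to 1.32 on the ratio of its lowest sh-IGF2BP3 to its highest sh-NC library. Counting intervals cover counting error only.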
